A study of Gallus gallus with 2 samples.

Results

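The notochord class held 1.47% of the 7750 cells from 1 preparation of whole HH5 chicken embryos (Hamburger-Hamilton staging; exact 95% binomial interval 1.21 to 1.76%, which covers counting error only). These were 111 cells that lay together when cells were placed by similarity and 3 that lay apart from them. Its members were all cells to which the authors' annotation gave the class name notochord. The preparation was made from gastrula embryos dissected in Ringer's solution and dissociated with enzymes. It was read with the 10x Multiome assay, which measures RNA and accessible chromatin (ATAC) in the same cell, as 1 RNA library and 1 ATAC library. There was 1 stage, with no contrasting treatment or genotype and no replicate preparation. All values are therefore described over cells, which are not replicates, and no difference between classes was tested.

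The notochord is the rod of axial mesoderm at the midline of the embryo. Its first cells leave Hensen's node, at the anterior end of the primitive streak, and extend forward beneath the neural plate and above the endoderm, a part called the head process that becomes visible at about this stage. Its cells are known for the transcription factor TBXT (brachyury), for the secreted BMP antagonist CHRD (chordin) and for the secreted signal SHH, which patterns the overlying neural tube and, later, the somites. Levels of these 3 genes were not analysed here. The class name is the authors' own and was not checked against them.

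The authors gave each cell a position in a weighted nearest neighbour UMAP, a plane on which cells with similar RNA and ATAC profiles lie close together, and gave 6681 cells of 13 classes an ATAC rank from 1 to 6681. Every notochord cell was ranked. No source used here says what quantity was ranked or whether low ranks are anterior, and ranks are called only low or high. Both the embedding and, judging by its name, the rank were derived from ATAC profiles of these same cells. A relation of rank to position is therefore a description and does not compare independent measurements. Distances in the embedding are not distances in the embryo. The number of RNA molecules and ATAC fragments per cell was not analysed here, and its part in any pattern below was not tested.

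Notochord cells covered most of the rank, with most of them at low to middle ranks and a thin upper tail. The lowest cell ranked 68, the median cell 2417.5 (95% binomial interval of the median 2082 to 2593) and the highest cell 6418. The quartiles were 1444.75 and 2939.25, so the middle of the class spanned an interquartile range of 1494.5 ranks. The 10th and 90th percentiles were 595 and 3384. Of all cells of the class, 102 lay below 3341, the middle of the rank, and 12 above it. The lower side was the longer one within the main body: the median lay nearer to the upper quartile than to the lower.

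The ranks of notochord cells had a standard deviation (SD) of 1196, the largest of the 13 ranked classes, whereas its interquartile range was only the 5th widest. Without its 3 highest cells the SD was 1023. The classes set beside it had interquartile ranges of 1628.25 in endoderm, 1975.25 in the primitive streak and 1199.75 in mesoderm-5. Their SDs were 1051, 1095 and 898, respectively. The notochord therefore had a middle spread between those of mesoderm-5 and endoderm, with a few cells far above it.

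**Figure D1:**
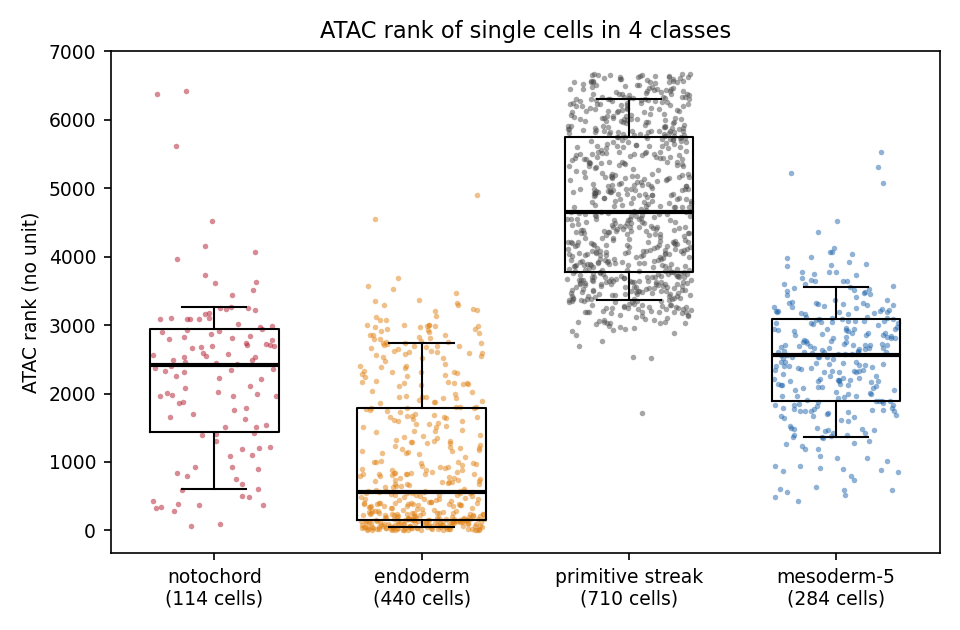
ATAC rank (vertical axis, no unit) of each cell in the notochord, endoderm, primitive streak and mesoderm-5 classes. Points are cells, boxes show the quartiles and the median, and whiskers end at the outermost cells within the 10th and 90th percentiles. Notochord cells overlap with mesoderm-5, lie mostly above endoderm and mostly below the streak, and 3 of them rank above 5181.

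Exactly 3 notochord cells were outlying by rank, with ranks of 5615, 6373 and 6418. They lay above the upper fence of 5181, which is 1.5 interquartile ranges above the upper quartile. They made up 2.63% of the class (95% interval 0.546 to 7.50%). The cell next below them ranked 4526, so 1089 ranks separated the outlying cells from the rest. No cell fell below the lower fence, which at -797 lies outside the possible ranks, so low cells could not be marked in this way. By the same fences, 2 of 440 endoderm cells and 4 of 284 mesoderm-5 cells were outlying, all on the high side, and the lower fence of endoderm, -2287, again lay outside the possible ranks. Both fences of mesoderm-5, at 88.1 and 4887, could be passed. No streak cell could be marked as high, since the upper fence of the streak, 8712, exceeded the highest rank, and none of its 710 cells lay below its lower fence. These counts are therefore not a like-for-like comparison of the classes.

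Notochord cells were most frequent just below the middle of the rank. When all ranked cells were divided into 10 bins of 668 or 669 cells, the bins from the lowest to the fifth held 13, 13, 19, 24 and 33 notochord cells. Bin 5, from rank 2674 to 3341, thus held the most, 28.9% of the class, and notochord cells made up 4.94% of its cells (95% interval 3.42 to 6.87%). Among all 6681 ranked cells, the notochord share was 1.71%. The count dropped to 6 cells in bin 6, where notochord cells made up 0.898% (0.330 to 1.94%), and to 3 cells in bin 7. The interval of bin 6 included the share of 1.71% among all ranked cells. Bin 8 held 0 notochord cells among 668, which allows a share of up to 0.449% by the limit of 3 counts of the total. The 3 outlying cells lay in bins 9 and 10.

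In the embedding, 111 cells formed a narrow arm and 3 cells lay apart from it. The arm ran from a first coordinate of 2.78 and a second of about -1.15 up to a first coordinate of 4.96 and a second of -0.20. It was close to a straight line: 99.0% of the variance of position lay along its main axis. Its length along that axis was 2.36 embedding units. Within the arm, 92 cells had only notochord cells as their 15 nearest cells. Because the class column is headed as cluster names, such compactness may follow from how the class was made. Its cells were packed most densely around the median point of the class (first coordinate 3.97, second -0.70), and single cells stood off at both ends, separated by gaps of 0.23 and 0.27 units.

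The 3 detached cells lay inside neural ectoderm-2, 7.79 to 8.28 units from the median point of the class, whereas no cell of the arm lay more than 1.28 units from it. All 15 nearest cells of each were neural ectoderm-2 cells. Their ranks were 1865, 2317 and 2733, close to the middle of the notochord range. The median ranks of their nearest cells were 1806, 2045 and 2124, in the same order, and each detached cell ranked higher than the median of its surroundings. None of the 3 was outlying by rank, and none of the 3 cells outlying by rank lay outside the arm. Position and rank thus marked different cells. The 5th and 95th percentiles of neural ectoderm-2 ranks were 817 and 3366, inside the notochord fences of -797 and 5181. Cells ranked like neural ectoderm-2 could therefore hardly be marked by rank.

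**Figure D2:**
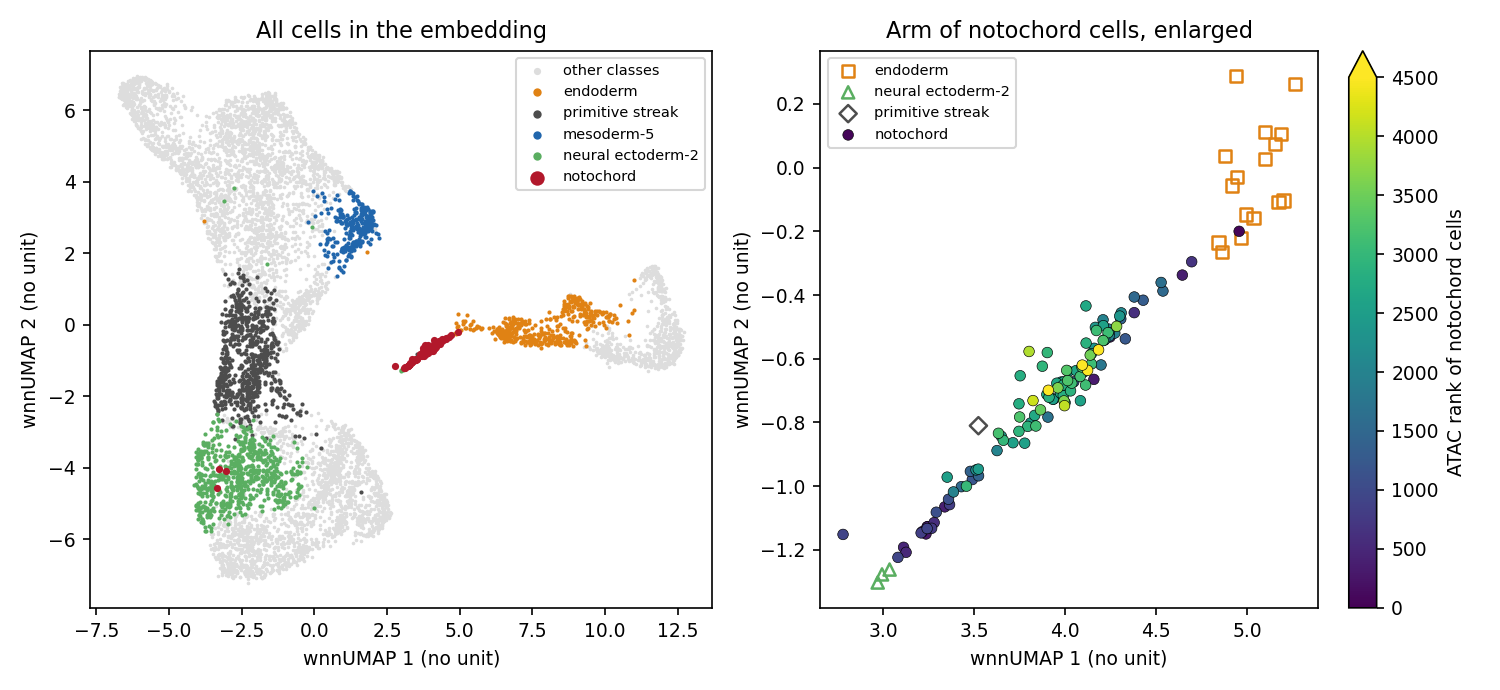
Left, all cells by their coordinates in the weighted nearest neighbour UMAP (no unit), with the notochord in red. Endoderm, the primitive streak, mesoderm-5 and neural ectoderm-2 have other colours, and the remaining classes are grey. Right, the arm enlarged, with notochord cells coloured by ATAC rank (scale capped at 4500) and cells of other classes as open symbols. Near the lower left end of the arm of 111 cells lie 3 neural ectoderm-2 cells, apart from the rest of their class. Endoderm cells lie near its upper right end. Ranks are low at both ends.

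The cells of other classes beside the arm differed between its ends. At its upper right end it met endoderm, the germ layer that lines the future gut. The last cell of the arm, with rank 68 the lowest of the class, had 13 endoderm cells among its 15 nearest, and the cells with ranks 681 and 382 had 8 and 4. In all, 13 endoderm cells had at least 1 cell of the arm among their own 15 nearest, and their median rank was 523 (range 233 to 1660). At its lower left end lay 3 neural ectoderm-2 cells with ranks of 331, 621 and 1052, each with 13 notochord cells among its 15 nearest. These 3 cells lay apart from their own class, as the 3 detached notochord cells did from theirs.

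Only 1 cell of the primitive streak lay in the arm. It ranked 2882, all of its 15 nearest cells were notochord cells, and it was among the 15 nearest of 11 of them. For 74 cells of the arm this same cell was the nearest cell of any other class. The next streak cell was 3.32 units from the arm. The arm thus had no border with the main body of the streak, and no mesoderm cell was among the 15 nearest of any notochord cell.

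The rank rose and then declined along the arm, with low ranks at both ends. To describe this, the 111 cells were divided by position along the main axis into 5 segments of 22 or 23 cells, numbered from the end with the lowest first coordinate. The median ranks were 902, 2756.5, 2837.5, 2782 and 1754. The 95% binomial intervals of the medians, over cells, were 499 to 1189 in segment 1, 2459 to 3094 in segment 2, 2490 to 3249 in segment 3, 2338 to 3226 in segment 4 and 1225 to 2004 in segment 5. The intervals of the 3 middle segments overlapped one another and none overlapped with that of an end segment. The intervals of the end segments did not overlap each other either. All these intervals are over cells of 1 preparation, and their overlap is not a test between segments.

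Of the end segments, segment 1 had the lower ranks. The 23 cells of segment 1 ranked from 96 to 3020, with quartiles of 495 and 1292.5. They included 18 of the 29 notochord cells that lay below the lower quartile of the class, and 1 of the 29 above the upper quartile. The 22 cells of segment 5 ranked from 68 to 3736, with quartiles of 1246 and 2002, and included 8 of the lowest 29. The middle segments held 3 of the lowest 29 and 26 of the highest 29. The low-ranking cells of the class thus lay at both ends of the arm, those of segment 5 on the endoderm side and those of segment 1 on the side away from it.

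A single correlation along the arm did not show this pattern. Spearman's rho between position and rank was 0.15 over all 111 cells. It was 0.80 over the 56 cells up to position 1.26 and -0.54 over the 55 cells beyond it. Over the whole class, rho was 0.14 with the first embedding coordinate and 0.18 with the second. Differences between the 5 segments made up 42.7% of the rank variance of the arm, and 49.95% without the 3 outlying cells; the rest lay within segments.

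**Figure D3:**
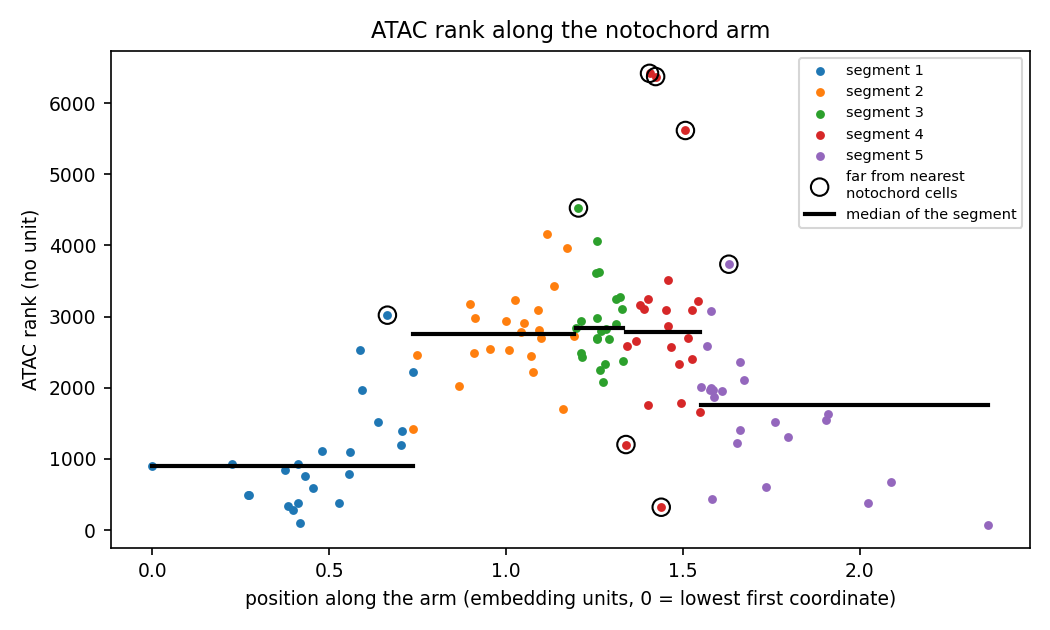
ATAC rank (vertical axis, no unit) of the 111 cells of the arm against position along its main axis (embedding units, 0 at the lowest first coordinate). Colours are the 5 segments, horizontal lines their medians, and circles mark the 8 cells whose rank lay far from that of their nearest notochord cells. Medians rise from 902 to 2837.5 and end at 1754.

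Rank changed along the axis of the comparison classes in other ways. Each class was placed on its own main axis and divided alike, after leaving out cells with no cell of their class among the 15 nearest, which kept 437 endoderm, 704 streak and 283 mesoderm-5 cells. Each axis was directed so that the first coordinate rose along it. In this order the 5 median ranks were 181, 152.5, 267, 1328 and 2301 in endoderm, where the first of these was the end beside the notochord. They were 6021, 5600, 4694, 3899 and 3511.5 in the primitive streak and 3238, 2869, 2540, 1898 and 1752.5 in mesoderm-5. Spearman's rho over the whole axis was 0.70 in endoderm, -0.76 in the streak and -0.72 in mesoderm-5. Differences between the 5 segments made up 59.3% of the rank variance in endoderm, 56.8% in the streak and 47.1% in mesoderm-5. The 42.7% of the notochord was lower than each of these. Without the 3 outlying notochord cells the notochord value was 49.95%. The mesoderm-5 value without that class's 4 outlying cells was not computed, so the order of these classes under like treatment is not known. The first coordinate set only the direction of each axis, so the streak axis need not start at the lowest first coordinates of its class. The sign of rho depends on the direction chosen for each axis. In these data the streak and mesoderm-5 medians changed in the same direction in every step, and those of the notochord rose and then fell. The main axis held 94.4% of the variance of position in endoderm, 72.7% in the streak and 59.7% in mesoderm-5, so it describes the layout of mesoderm-5 less well than that of the notochord.

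By fences set from these same cells, 8 cells of the arm ranked far from the notochord cells around them. For each cell of the arm, the median rank of its 15 nearest notochord cells was subtracted from its own rank. The absolute difference had a median of 415 ranks, and the quartiles of the signed difference were -454 and 354. Beyond fences of 1.5 interquartile ranges (-1666 and 1566) lay 8 cells, 6 ranking above their surroundings and 2 below. Cells inside the fences were not all near their surroundings: for the cell with rank 435 the difference was -1569 ranks. The cells with ranks 6418, 6373 and 5615 exceeded their surroundings by 3551, 3506 and 3217 ranks. The cell with rank 321 lay below its surroundings, with a difference of -2765 ranks. The fences of the whole class could not mark it, because the lower one, -797, lies outside the possible ranks.

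These most deviant cells lay close together. The cells with ranks 6418, 6373, 321 and 5615 were at positions 1.41, 1.42, 1.44 and 1.51 on the arm, all in segment 4. Each of the 3 high cells had 15 notochord cells as its nearest cells, so they did not border any other class. The high and the low cells thus sat side by side in the embedding with ranks near opposite ends of the scale. The other deviant cells ranked 1202 in segment 4, 3020 in segment 1, 4526 in segment 3 and 3736 in segment 5. Whether any of these barcodes held more than 1 cell was not tested.

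Against the endoderm, notochord cells ranked higher in 79.1% of all pairs of cells, where 50% means no difference in level. Of the notochord cells, 103 ranked at or above the endoderm median of 564.5, and 78 ranked above its upper quartile of 1783.75. The 3 outlying cells ranked above every endoderm cell. The gap in level depended on the part of the arm. Notochord cells ranked higher in 58.5% of pairs in segment 1, 89.0% in segment 2, 91.3% in segment 3, 87.1% in segment 4 and 69.7% in segment 5. Both end segments were thus nearer to the endoderm level, including segment 1, which did not border endoderm.

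Against the primitive streak, from which axial mesoderm arises by way of the node, notochord cells ranked lower in 94.9% of pairs. Of the notochord cells, 107 ranked below the lower quartile of the streak, 3773.5, and 35 ranked below its lowest cell, 1714. Exactly 3 cells ranked above the streak median of 4654.5, and these were the 3 outlying cells. The percentage of pairs with the notochord cell higher was 0.110% in segment 1, 4.66% in segment 2, 6.55% in segment 3, 13.8% in segment 4 and 1.29% in segment 5. The highest value, in segment 4, includes the 3 outlying cells. No segment approached the level of the streak.

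Against mesoderm-5, the mesoderm class with the median nearest to that of the notochord, the end segments of the arm had lower ranks, and the middle segments overlapped with it. Over all cells, the notochord cell ranked higher in 43.3% of pairs and the difference of the medians was -142 ranks (notochord minus mesoderm-5). The binomial intervals of the medians, 2082 to 2593 in the notochord and 2399 to 2669 in mesoderm-5, overlapped. Notochord cells ranked higher in 59.1%, 65.0% and 58.4% of pairs in segments 2, 3 and 4. They ranked higher in 11.4% in segment 1 and 24.5% in segment 5. The intervals of the segment medians lay below that of mesoderm-5 in segments 1 and 5 and overlapped it in segments 2, 3 and 4. Among these cells the end segments thus had lower medians than mesoderm-5, and the middle segments had medians near it. The intervals are over cells of 1 preparation, in segments cut after the layout was seen, and are not a test.

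The tails of these classes differed as well. The lowest mesoderm-5 cell ranked 434, and 8 notochord cells ranked below it, 5 of them in segment 1, 1 in segment 4 and 2 in segment 5. The highest mesoderm-5 cell ranked 5526, and the 3 outlying notochord cells ranked above it. Of the notochord cells, 52 lay within the quartiles of mesoderm-5, against 34 within those of endoderm and 5 within those of the streak. In the embedding, notochord and mesoderm-5 did not border each other despite their similar ranks, since no notochord cell had a mesoderm-5 cell among its 15 nearest. The distance between these classes was not measured.

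**Figure D4:**
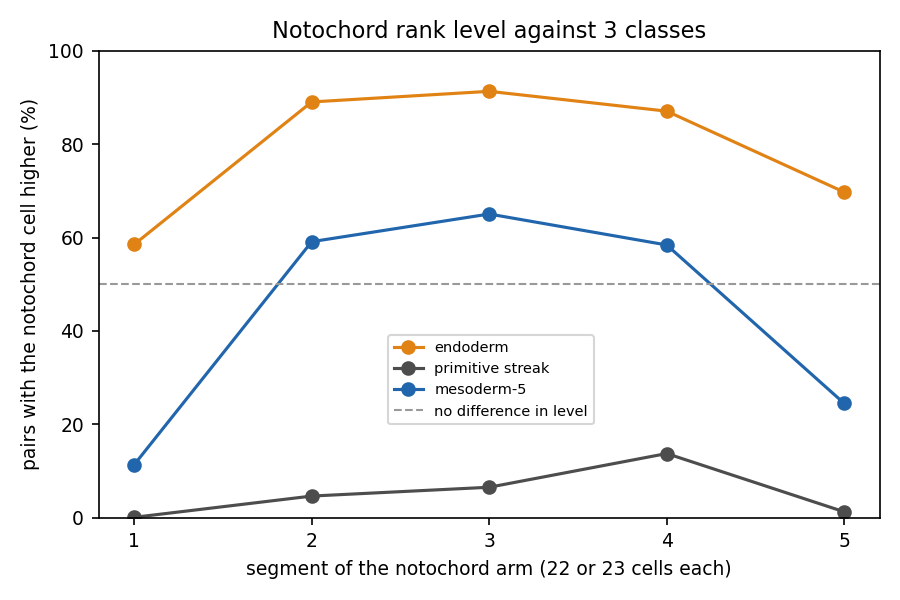
Percent of cell pairs in which the notochord cell had the higher ATAC rank (vertical axis) for each of the 5 segments of the arm (horizontal axis) against endoderm, the primitive streak and mesoderm-5. The dashed line at 50% marks no difference in level. Against mesoderm-5 the 3 middle segments lie above the line and both end segments below it.

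The segments filled different parts of the rank. Segment 1 supplied 8 of the 13 notochord cells in bin 1 and 9 of the 13 in bin 2. Segment 5 supplied 10 of the 19 in bin 3. Segments 2, 3 and 4 supplied 10, 12 and 8 of the 33 in bin 5, where the class was most frequent. All 3 cells in bins 9 and 10 came from segment 4.

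**Figure D5:**
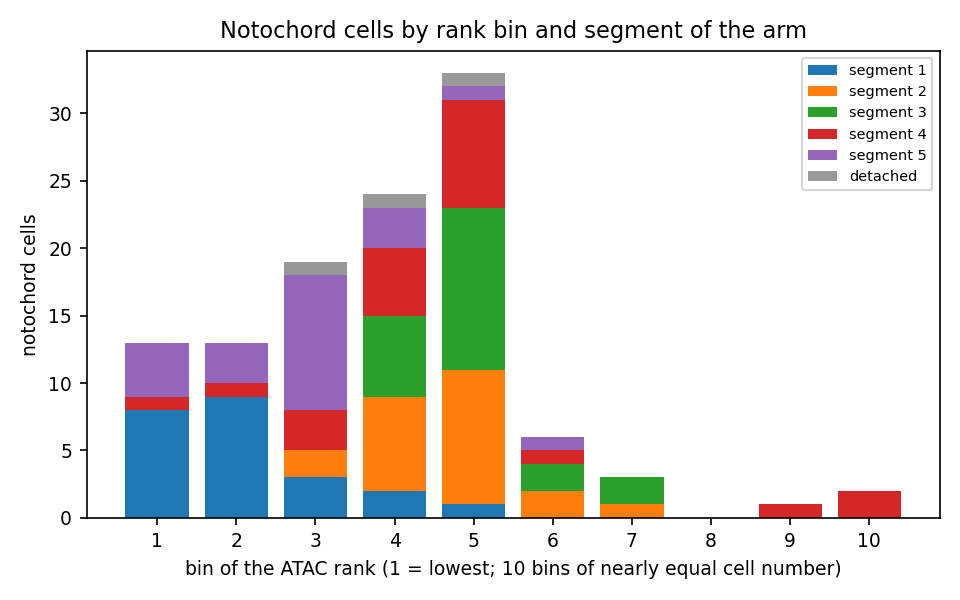
Number of notochord cells (vertical axis) in each of 10 bins of the ATAC rank (horizontal axis, lowest ranks first), coloured by segment of the arm, with the 3 detached cells in grey. Bin 5 holds the most cells, 33, and the lowest bins are filled mainly from segments 1 and 5.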

How the data were processed

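The deposited table has a row per cell barcode (7750 distinct barcodes, 114 of them named notochord). Per the file headers it holds 2 embedding coordinates, a class name and an ATAC rank. Coordinates and ranks are scores that the authors deposited, without a unit. The submitters' processing notes list Signac 1.8.0, Seurat 4.3.0, Cell Ranger ARC 2.0.0 and the galGal6 build. How cells were filtered, doublets treated and classes named is not given in the sources used here. No doublet caller was run, and depth per cell is unknown.

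Nearest cells were found by Euclidean distance in the embedding. The arm was defined as the notochord cells with at least 1 notochord cell among their 15 nearest, and positions along it came from the first principal axis of their coordinates. Fences lay 1.5 interquartile ranges beyond the quartiles. Intervals of shares are exact (Clopper-Pearson), those of medians binomial. The rule for named items allowed genes only where the table held gene values, and single cells by their rank; cells deviating from their surroundings, detached or bordering other classes were chosen after their values were seen. The members, comparison classes and summaries were chosen with earlier results of these data known. The arm, its segments and differences from nearest notochord cells were added after the layout had been seen. Functions were tested on simulated data. Alternatives were means, Pearson correlations, other fences, 5, 30 or 50 nearest cells, quartile-sized segments, normal scores and leaving out outlying cells. Python 3.11.15, pandas 2.3.3, NumPy 2.4.6, SciPy 1.17.1 and matplotlib 3.10.9 were used.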

Additional observations from a re-analysis of the deposited data

How the results depend on the processing

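Of 43 alternative values for 17 results, 40 stayed within the interval or tolerance set for each (the binomial interval for medians and percentages, 1.5 times for counts, spreads and variance shares, 0.1 for correlations). The other 3 moved. With fences at 3 interquartile ranges, 0 notochord cells were outlying by rank in place of 3; this was fixed by the setting, because its upper fence of 7423 exceeds the highest rank, 6681, and its lower fence is below 1, so it says nothing about the 3 cells. By contrast, 3 cells were outlying with a limit of 3 scaled median absolute deviations. With 5 nearest cells in place of 15, primitive streak cells made up 0% of the nearest cells of notochord cells, against 0.643%; these came from 1 streak cell. Without the 8 cells far from their nearest notochord cells, the correlation of rank with position beyond the middle of the arm was -0.69 in place of -0.54. Those 8 cells were picked by their rank against nearby cells, so leaving them out favours a stronger correlation by construction. With the first coordinate in place of the main axis, the correlation beyond the middle was -0.62. The correlation before the middle was between 0.71 and 0.85 under all alternatives run. The alternatives for the arm were chosen after seeing the data. No paired analysis was possible because RNA and ATAC were read in 1 set of cells and there were no sample groups to compare. At this number of cells, a share of 2.63% rests on 3 cells, and the medians of segments on 22 or 23.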
